A study of Saccharomyces cerevisiae with 78 samples.

Results

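The transcripts described here encode the mitochondrial ribosomal proteins of the yeast Saccharomyces cerevisiae. The members are the genes with the standard name MRPL, MRPS, MRP or RSM and a number, a rule that uses no measured value. In the reference annotation 67 genes carry such a name, and 62 of them have a row of their own among the 5229 gene rows of the count files. Of the 62, 35 encode proteins of the large subunit and 25 are annotated as proteins of the small subunit. RSM22 is named for the small subunit but annotated as a tRNA methyltransferase without a subunit, and it is counted with the small subunit here, which makes 26. The remaining gene, MRP8, is no ribosomal protein in spite of its name, and its values are given apart where they differ. MRP10, MRPL33, MRPL39, MRPL44 and RSM19 have no row of their own and were not analysed here. All 62 genes passed the filter on low counts, with 103 to 5305 counts per gene and library.

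Mitochondria make a few proteins themselves, in yeast mostly subunits of the respiratory chain and the ATP synthase, on ribosomes of their own. Nearly all proteins of these ribosomes are encoded in the nucleus, made in the cytosol and imported, and many are related to bacterial ribosomal proteins while others occur in mitochondrial ribosomes alone. In budding yeast the mRNAs of many of them are bound by the RNA-binding protein Puf3, and mitochondrial translation is needed for growth by respiration.

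The study introduced fusion genes, each made of joined parts of different genes, into strain BY4742, a haploid laboratory strain of the alpha mating type. The 25 groups with a fusion-gene clone and the 1 group with the control plasmid had 3 biological replicates each, 78 libraries in 26 groups. All groups were transformants of the same strain grown to mid-logarithmic phase in the same galactose medium without uracil, and polyadenylated RNA was sequenced. The labels name the clones by plate codes and do not say which genes were fused, so a clone is given here by its code. All 25 clones in the sample titles were used, although the design of the series counts 22. Groups follow those titles. The libraries titled as replicates 1 and 2 of M492-E01 are named with a different clone code, M585-B08, and the library name of control replicate 3 holds another plasmid name than those of control replicates 1 and 2 (PP2061 and p416-GAL1). Replicates 1 and 2 of each group belong to a first set of libraries and replicate 3 to a resubmitted set, per the library names. The 3 control libraries are shared by all comparisons against the control.

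Counts on gene rows ranged from 10415284 to 18048675 per library, with a median of 13540273. The galactose gene GAL1 had at least 8256 CPM (counts scaled to a common library size) in every library. All 4 listed genes of the alpha mating type had rows, with the a-factor receptor gene STE3 at 126 to 282 CPM, and 3 of 6 listed genes of the opposite mating type did, with the alpha-factor receptor gene STE2 at a level of at least 15.8 CPM. The library sets differed in most of the 62 genes, 25 of which were higher and 28 lower in the resubmitted set, while 41.4% of all genes tested were higher and 43.2% lower, so that the 62 genes lay near the background. The fit therefore held a term for the set, and the values within each set are printed beside the pooled ones.

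The 62 transcripts were of middling abundance. Per kilobase of coding length (RPKM, which is CPM divided by that length), their median in the control was 72.3, against 56.5 for all genes, 693 for 27 nuclear genes of the respiratory chain and ATP synthase and 1889 for 23 genes of the cytosolic ribosome. The quartiles of the 62 were 54.8 and 104 RPKM. The large and small subunits had medians of 72.3 and 75.7 RPKM. The highest was MRP8 at 387 ± 20.4 RPKM (SD, n = 3). It was followed by MRPS12 at 316 ± 12.5, MRPS16 at 200.2 ± 25.2 and MRPL51 at 166 ± 8.46 RPKM. MRPS12 is the relative of a bacterial protein of the decoding centre, MRPS16 has a bacterial relative in the small subunit, and MRPL51 is a large-subunit protein found in mitochondrial ribosomes alone. The lowest were RSM22 at 23.0 ± 3.47, MRPL28 at 26.5 ± 4.77, MRPL19 at 35.2 ± 4.36 and MRP13 at 38.6 ± 3.14 RPKM, all in the control with n = 3. RSM22 and MRPL28 lay within their spread of each other, as did MRPL19 and MRP13.

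As a summed share of all gene counts, the 62 transcripts held 0.485%, 0.484% and 0.420% in the libraries of clone M495-D09, against 0.371%, 0.353% and 0.361% in the control. All 3 libraries of M495-D09 lay above all 3 of the control. Including M495-D09 this held for 14 of the 25 clones, while 11 overlapped the control and 0 lay below it. M492-E01 held 0.467%, 0.453% and 0.404%, and M490-A12 held 0.445%, 0.463% and 0.396%. Over all 78 libraries the share ran from 0.341% to 0.485% with a median of 0.385%. In bulk cultures, fewer cells of a type and less RNA per cell cannot be told apart.

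**Figure D1:**
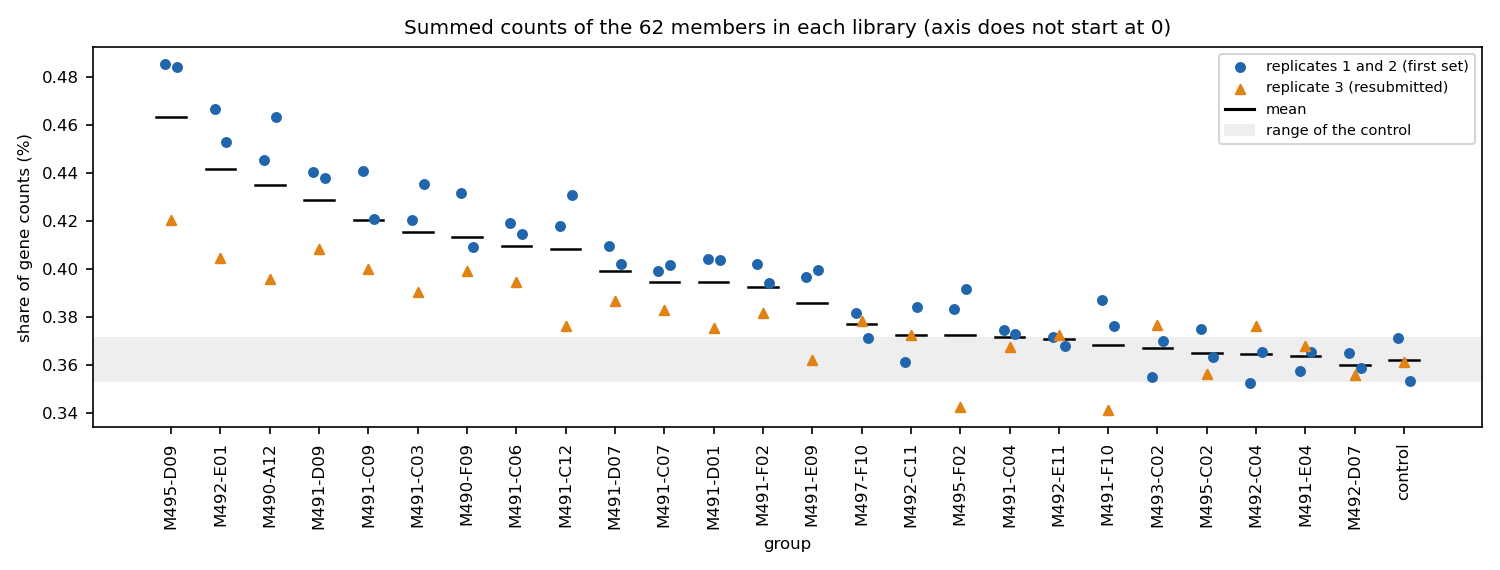
Share of all gene counts held by the 62 genes in each library, in percent, with clones ordered by their mean and the control at the right. Circles are replicates 1 and 2 (first set), triangles replicate 3 (resubmitted set), lines the means and the grey band the range of the control. M495-D09 stands highest with 0.420% to 0.485%, and in most groups at the left the triangle lies below the circles.

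Each clone was first compared with the control. The calls were edgeR quasi-likelihood tests on all genes that passed the filter on low counts, with Benjamini-Hochberg adjusted p-values within a comparison and a threshold of 0.05. Over the 25 comparisons, which share their controls, 406 calls among the 62 genes were higher in a clone and 7 were lower. Over all genes tested 5.87% of the calls possible in the 25 comparisons were higher and 4.76% lower. In 11 clones at least 10 of the 62 were higher, in 9 clones 1 to 7 were, and in 5 clones 0 were. The median log2 fold change of the 62 was above 0 in 22 of 25 clones, and in 8 clones all 62 values were above 0. Without control replicate 2 the sum of higher calls was 265. The changes were small. The largest single value was 0.82 and the smallest -0.43 on the log2 scale.

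**Figure D2:**
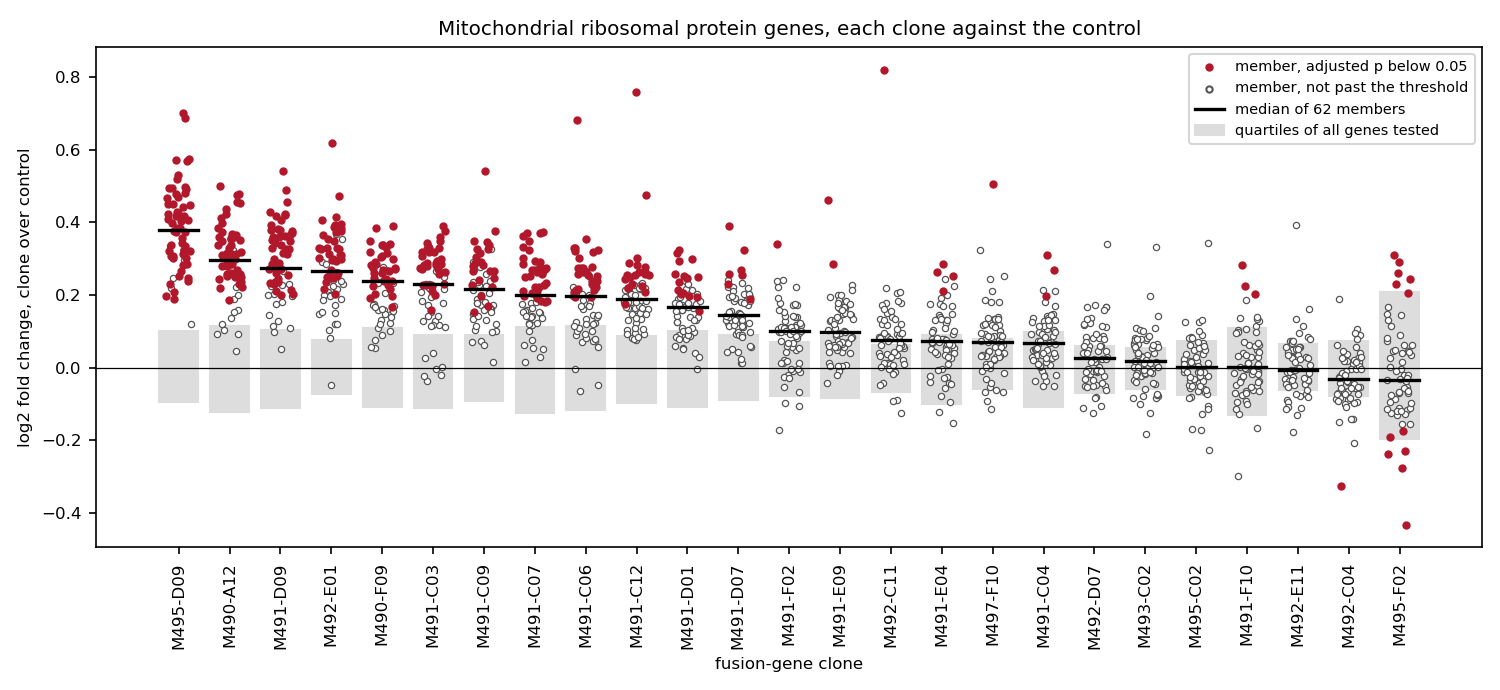
Log2 fold change of each of the 62 genes in each clone over the control, with clones ordered by their median (black line). Filled points passed an adjusted p of 0.05, open points did not, and grey boxes span the quartiles of all genes tested. In M495-D09 57 points are filled and the median is 0.38, while the clones at the right have medians near 0.

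M495-D09 had the most changes. Of the 62 genes 57 rose, 0 fell and 5 did not pass, while 8.04% of all genes tested rose in this clone. The median log2 fold change was 0.38 against 0.00 for all genes, and it was 0.46 within the first set and 0.23 within the resubmitted libraries. Both subunits contributed, with 32 of 35 large-subunit and 24 of 26 small-subunit genes higher and medians of 0.38 and 0.39. MRPL31 (YKL138C), a large-subunit protein of mitochondrial ribosomes alone, had 80.3, 84.0 and 72.1 CPM in M495-D09, against 50.3, 46.9 and 49.6 CPM in the control. Every M495-D09 library was above every control library, and the log2 fold change was 0.69 (SE 0.0761, adjusted p = 1.65e-09). MRPL28 (YDR462W), another such protein and one of the lowest transcripts of the set, had 21.6, 21.4 and 14.6 CPM in M495-D09, against 12.4, 13.5 and 9.41 CPM in the control. In both groups replicate 3 was the lowest, and the log2 fold change was 0.70 (SE 0.103, adjusted p = 7.44e-07). RSM27 (YGR215W), a small-subunit protein, had 44.4, 45.7 and 37.4 CPM in M495-D09, against 28.5, 27.6 and 29.7 CPM in the control, which gave a log2 difference of 0.57 (SE 0.0794, adjusted p = 2.39e-07). MRPL8 (YJL063C) is the relative of a bacterial large-subunit protein. It had 81.9, 86.7 and 88.2 CPM in M495-D09, against 52.6, 55.5 and 65.0 CPM in the control. Its log2 difference was 0.57 (SE 0.0678, adjusted p = 8.24e-09). Lack of overlap with the control was a condition for naming these higher genes, so it adds nothing to their calls. The 5 genes that did not pass were MRPL25 at 0.12, MRPS16 at 0.22, RSM18 at 0.25, MRP35 at 0.30 and MRPL32 at 0.33 on the log2 scale. MRPL25 had 28.5, 31.8 and 24.7 CPM in M495-D09, against 27.1, 24.8 and 26.1 CPM in the control, and the groups overlapped.

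In M490-A12 49 of the 62 genes rose and 0 fell, against 11.9% of all genes tested. The median was 0.30 on the log2 scale, with 0.35 within the first set and 0.19 within the resubmitted libraries, and 28 large-subunit and 20 small-subunit genes were called. MRPL31 had 67.9, 73.2 and 66.4 CPM in M490-A12, against 50.3, 46.9 and 49.6 CPM in the control (log2 fold change 0.50, SE 0.0765, adjusted p = 4.71e-06). MRPL1 (YDR116C), the relative of a bacterial protein near the tRNA exit site, had 65.4, 70.0 and 61.4 CPM in M490-A12, against 47.0, 46.3 and 50.8 CPM in the control, which gave a log2 difference of 0.46 (SE 0.0774, adjusted p = 2.65e-05). MRPL20 rose by 0.47 and MRPL28 by 0.48 on the log2 scale. For these 4 genes the groups did not overlap, which was a condition for naming them. MRPL51 (0.05), MRPL4 (0.09), MRPS16 (0.09) and RSM18 (0.10) had the lowest log2 fold changes among the 13 that did not pass.

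In M491-D09 45 of the 62 genes rose and 0 fell, against 8.69% of all genes tested. The median was 0.27, with 0.34 within the first set and 0.19 within the resubmitted libraries, and 24 large-subunit and 21 small-subunit genes were called. MRPL13 (YKR006C), a large-subunit protein of mitochondrial ribosomes alone, had 61.8, 59.8 and 64.9 CPM in M491-D09, against 44.8, 45.5 and 45.7 CPM in the control. The values were tight within both groups, and the log2 fold change was 0.46 (SE 0.0722, adjusted p = 1.18e-05). MRPL31 rose by 0.54 and MRPL35 by 0.43 on the log2 scale. MRPL19, whose bacterial relative lies at the binding site of the translation factors, rose by 0.49. Lack of overlap with the control was again a condition for naming these genes. The same clone held the one large change found among the genes of mitoribosome assembly. MTG2 (YHR168W), a GTPase that acts on the mitochondrial large subunit, had 47.9, 49.2 and 311.0 CPM in M491-D09, against 6.15, 5.41 and 7.53 CPM in the control. Its log2 fold change was 4.31 (SE 0.315, adjusted p = 8.67e-16), and replicate 3 stood far above replicates 1 and 2. The labels do not say which genes the clone holds, so reads of a plasmid and of the genomic MTG2 gene cannot be told apart.

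In M490-F09 36 of the 62 genes rose and 0 fell, against 8.6% of all genes tested. The median was 0.24, with 0.27 within the first set and 0.20 within the resubmitted libraries. RSM27 had 38.8, 34.2 and 39.5 CPM in M490-F09, against 28.5, 27.6 and 29.7 CPM in the control, which gave a log2 difference of 0.39 (SE 0.0798, adjusted p = 0.000529). MRPL35 (YDR322W) had 81.2, 74.6 and 80.9 CPM in M490-F09, against 59.5, 59.2 and 62.8 CPM in the control, which gave a log2 difference of 0.38. MRPL23, the relative of a bacterial large-subunit protein, rose by 0.35 and MRPL31 by 0.34 on the log2 scale. These 4 genes had no overlap between the groups, which was a condition for naming them. The count of 36 was 23 without control replicate 1 and 23 without control replicate 2.

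In M492-E01, whose replicates 1 and 2 have the other clone code in their library names, the genes called were few outside this set. Of the 62 genes 35 rose, against 2.49% of all genes tested, and the median was 0.27, with 0.33 within the first set and 0.14 within the resubmitted libraries. MRPL28 had 19.0, 20.1 and 15.1 CPM in M492-E01, against 12.4, 13.5 and 9.41 CPM in the control, which gave a log2 difference of 0.62 (SE 0.103, adjusted p = 0.000114). MRPL20 (YKR085C), a large-subunit protein of mitochondrial ribosomes alone, had 35.1, 35.7 and 32.9 CPM in M492-E01, against 24.7, 21.4 and 28.7 CPM in the control, which gave a log2 difference of 0.47 (SE 0.0945, adjusted p = 0.00101). MRP8 had 234, 246 and 259.7 CPM in M492-E01, against 254, 269 and 243 CPM in the control, and was the one gene of the 62 with a value below 0 in this clone (log2 fold change -0.05, adjusted p = 0.821). The count of 35 was 21 and 22 without replicates 1 and 2 of M492-E01 and 21 without control replicate 1 or control replicate 2.

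Other clones had smaller counts in the same direction. In M491-C07 35 genes rose, against 12.1% of all genes tested, in M491-C03 34, against 6.54%, and in M491-C06 28, against 11.4%. M491-C09 had 24 genes higher, against 4.49%, M491-C12 had 20, against 4.95%, M491-D01 had 15, against 6.79%, and M491-D07 had 7, against 3.03%. In these clones 0 of the 62 fell, and their medians ran from 0.23 in M491-C03 to 0.15 in M491-D07. Several of these counts rested on single libraries. Without replicate 2 of the clone the count was 22 in M491-C03, 18 in M491-C06, 20 in M491-C07, 6 in M491-C12 and 4 in M491-D07. Without replicate 1 of the clone it was 23 in M491-C07, 11 in M491-C09 and 2 in M491-D07, and without replicate 3 it was 14 in M491-C09, 8 in M491-C12, 3 in M491-D01 and 1 in M491-D07. Without control replicate 1 it was 13 in M491-C09, 6 in M491-C12, 5 in M491-D01 and 3 in M491-D07. Without control replicate 2 it was 16 in M491-C06, 20 in M491-C07, 13 in M491-C09, 8 in M491-C12, 5 in M491-D01 and 1 in M491-D07.

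In the remaining clones few of the 62 genes passed. M491-E04 had 4 higher, against 4.57% of all genes tested, M491-C04 had 3, against 8.12%, M491-F10 had 3, against 11.5%, and M491-E09 had 2, against 2.65%. In M491-C04 the 3 were MRPS12 at 0.31, MRP8 at 0.27 and MRPS18 at 0.20 on the log2 scale. M491-F02 had 1 (MRPL9), against 0.345%, M492-C11 had 1 (MRPL28), against 0.0384%, and M497-F10 had 1 (MRPL32), against 0.921%. M492-D07, with 0.0192% of all genes higher, M492-E11, with 0.691%, M493-C02, with 0.0192%, and M495-C02, with 1.09%, had 0 higher and 0 lower. At an unadjusted p of 0.05 they had 6, 3, 3 and 4 of the 62. Some genes pass that threshold without a difference, and the share of all genes passing it is not given, so these counts say little. DESeq2 called 1 of the 62 higher in M492-E11 and 0 in the other 3 clones. M491-C04 and M491-F10 thus had 423 and 598 genes higher in all, with shares of the 62 below that background. Leaving out 1 library also moved these counts. M491-E04 had 2, 0 and 0 without its replicate 1, its replicate 3 and control replicate 2. M491-E09 had 1 without its replicate 1 or control replicate 2, and M491-F10 had 1 and 0 without its replicate 1 and control replicate 1. M491-F02 and M497-F10 each had 0 without their replicate 3 or control replicate 2, and 2 without control replicate 3.

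M495-F02, the clone with the most changed genes of all, showed no common direction. Of the 62 genes 6 rose, against 25.6% of all genes tested, and 6 fell, against 24.7%, with a median of -0.03. The higher genes were MRPL28, MRPL17, MRP8, RSM22, RSM10 and MRPL24. The lower genes were MRP2, MRPL15, MRPS5, RSM7, MRPL50 and MRPL36. MRP2 (YPR166C), the relative of a bacterial small-subunit protein, had 23.2, 26.7 and 19.1 CPM in M495-F02, against 33.7, 29.6 and 29.5 CPM in the control, without overlap (log2 fold change -0.43, SE 0.115, adjusted p = 0.00134). MRPL15 fell by 0.28 and RSM7 by 0.23 on the log2 scale, also without overlap, which was a condition for naming these lower genes. MRPL28 had 16.8, 15.2 and 11.8 CPM in M495-F02, against 12.4, 13.5 and 9.41 CPM in the control, which gave a log2 difference of 0.31 (SE 0.106, adjusted p = 0.0126), although the groups overlapped. MRPL17 had 49.6, 54.8 and 55.4 CPM in M495-F02, against 38.9, 37.5 and 56.3 CPM in the control, so that it was higher in the first set alone. The library sets differed in this clone, with a median of the 62 of 0.07 within the first set and -0.22 within the resubmitted libraries. Without replicate 3 of M495-F02 12 genes were higher and 3 lower, and with the first set alone 14 were higher and 3 lower.

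Few of the 62 genes were lower than the control in any clone. M492-C04, with 2.3% of all genes higher and 4.09% lower, had 0 of the 62 higher and 1 lower. MRPL13 had 37.7, 33.7 and 37.3 CPM in M492-C04, against 44.8, 45.5 and 45.7 CPM in the control. All M492-C04 libraries were below all control libraries, and the log2 fold change was -0.32 (SE 0.0746, adjusted p = 0.00219), with -0.33 within the first set and -0.29 within the resubmitted libraries.

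The mean of the 25 clones was also compared with the control. Here 15 of the 62 genes were higher, against 3.7% of all genes tested, and 0 were lower, with a median of 0.13 against 0.00 for all genes. The 6 with the largest values were MRPL28 at 0.38 (SE 0.0781, adjusted p = 0.00128), MRPL9 at 0.24, MRPL31 at 0.24, RSM27 at 0.22, RSM22 at 0.22 and MRPL17 at 0.21 on the log2 scale. For MRPL28, MRPL9, RSM22 and MRPL17 the control had the lowest fitted level of all 26 groups. This count rested on the control libraries and on the term for the set. It was 5 without control replicate 1, 2 without control replicate 2, 2 with no term for the set and 43 with the first set alone.

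A further contrast set each clone against the average of the 25 remaining groups, in which the control has little weight. M495-D09 again had the most genes higher, 52 of 62, against 9.44% of all genes tested, with a median of 0.28. M490-A12 had 37, against 10.3%, M491-D09 had 35, against 5.16%, and M492-E01 had 35, against 6.85%. M491-C03 had 16, against 7.92%, M490-F09 had 13, against 5.2%, and M491-C07 had 10, against 9.92%. In M495-D09 MRPL31 was 0.48 (SE 0.0518, adjusted p = 2.2e-10), MRPL8 0.43 and MRPL20 0.42 above the other groups on the log2 scale. MRPL10 (YNL284C), the relative of a bacterial large-subunit protein, led M490-A12. It had 94.8, 103 and 89.7 CPM there, against 73.4, 69.3 and 67.5 CPM in the control, and was 0.32 above the other groups (SE 0.0398, adjusted p = 3.48e-08). MRPL20 and MRPL37 were 0.32 and 0.30 above them in the same clone. In M492-E01 MRPL20 was 0.32, MRP2 0.28 and MRPS17 0.28 above the other groups. MRP2 had 42.4, 39.0 and 30.6 CPM in M492-E01, against 33.7, 29.6 and 29.5 CPM in the control, and its difference from the control did not pass (adjusted p = 0.216). Without M490-A12 replicate 2 the count of 37 was 19, and without M492-E01 replicate 1 or replicate 2 the count of 35 was 4 or 6.

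Other clones were low against the other groups. M495-F02 had 36 of the 62 lower, against 29.5% of all genes tested. It had 3 higher, while 1621 of all 5212 genes tested were higher, so the 3 lay below that background. M492-C04 had 36 lower, against 13.5%, M492-E11 had 20, against 8.44%, and M491-F10 had 18, against 8.48%. M493-C02 had 13 lower, against 7.85%, and M495-C02 had 11, against 2.42%. In M495-F02 MRP2 was 0.44, MRPS5 0.39 and MRPL15 0.35 below the other groups on the log2 scale. In M492-C04 MRPL13 was 0.49 below them (SE 0.056, adjusted p = 4.18e-10), MRPL6 0.29 and RSM27 0.27. RSM27 had 28.2, 26.8 and 28.2 CPM in M492-C04, against 28.5, 27.6 and 29.7 CPM in the control, which is itself low among the 26 groups. Without M492-C04 replicate 1 or replicate 2 its count of 36 was 11 or 21, and without M495-F02 replicate 3 that clone had 18. The median of the 62 in the control lay 0.13 below the mean over the groups on the log2 scale, and 2 clones, M492-C04 and M495-F02, lay lower, both at -0.16.

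The 6 clones of row A of the first-set library plate had 3 to 49 of the 62 genes higher than the control, with a median of 34.5, and the 6 clones of row B had 4 to 45. The 6 clones of row C had 0 to 3, the 6 of row D 0 to 57, and the 1 clone of row E, the row of the control, had 1. The control stood in row E. For the clones of rows A to D, the row and the clone therefore cannot be told apart in a comparison with the control. M495-D09 and M492-E01 stood in row D beside 3 clones with 0 genes higher. The rows of the first set were not fitted, so their part in these counts was not tested. A fit with only the resubmitted libraries split by row, row A against the others, was also run. Its counts were 58 in M495-D09, 54 in M490-A12, 49 in M491-D09, 38 in M492-E01 and 35 in M490-F09.

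**Figure D3:**
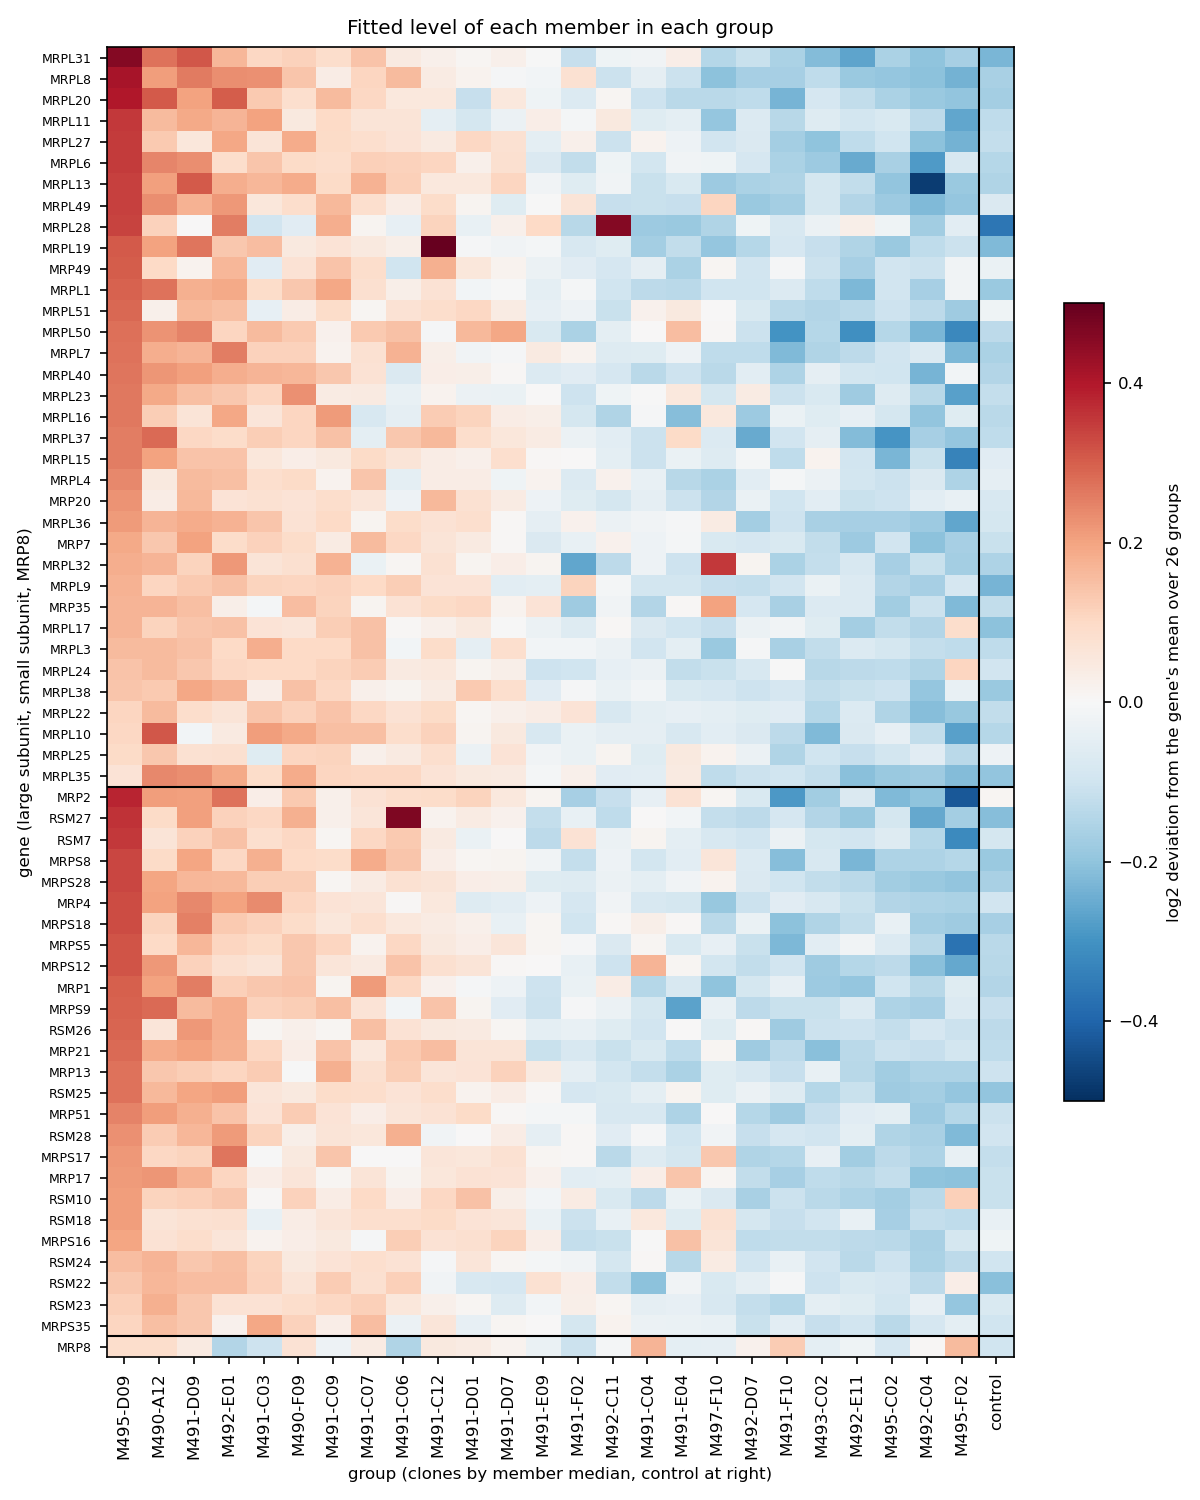
Fitted level of each of the 62 genes (rows: large subunit, small subunit, MRP8) in each of the 26 groups (columns, clones ordered by the median of the 62, the control at the right), as the log2 deviation from the gene's mean over the groups. The columns change colour as a whole, from M495-D09 with a median of 0.27 to M495-F02 at -0.16 and the control at -0.13. Single dark cells stand out in MRPL28, MRPL19, RSM27 and MRPL13, and the MRP8 row runs apart from the others.

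The 62 transcripts moved together from group to group. Over the 26 groups 61 of the 62 differed between groups in an F test of the same fit, but so did 83.2% of all genes tested, so the count says little about these genes. Their SD over the fitted group levels had a median of 0.13 on the log2 scale, against 0.11 for all genes. The correlation of each gene with the median of the other members over the 26 groups had a median of 0.88, against -0.02 over all genes. These points share libraries, depth and scaling, and the values are a description. All 61 genes apart from MRP8 had a correlation of at least 0.50, and the medians of the large and the small subunit correlated at 0.99. The largest difference between the 2 subunit medians in any clone was 0.06 on the log2 scale. The closest to the other members was MRPS28 at 0.96. MRP8 had the lowest correlation, 0.02, although its level was the highest of the set. It was called higher in 5 clones, among them M495-F02, where it had 333, 336 and 251 CPM, against 254, 269 and 243 CPM in the control.

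Members differed in how often they were called and in how far they moved. MRPL28 was called higher in 15 of 25 clones, RSM25 and MRPL31 in 13, and MRPL9, MRPL17, MRPS12, MRPS18 and RSM22 in 12. MRP35, MRPL25, MRPS16 and RSM18 were called in 0 clones, and the median gene in 6.5. These counts also depend on the level of the shared control and on the standard error. In MRPL28 the control was the lowest group, at -0.36 from the gene's mean over the groups. MRP2 was called higher in only 1 clone, although its spread was among the largest. The spread over the groups was largest in MRPL13 with an SD of 0.19, and MRPL19, MRPL50, MRP2, MRPL31 and MRPL8 followed at 0.18 each. It was smallest in MRPL25 at 0.08, MRP8 at 0.09 and RSM18 at 0.09. MRPL25 was the one gene of the 62 that did not differ between groups. The systematic subunit names of the reference annotation divide the ribosomal proteins into 38 related to bacterial proteins and 22 found in mitochondrial ribosomes alone, with RSM22 and MRP8 in neither class. In M495-D09 34 of the 38 rose with a median of 0.40 and 21 of the 22 with a median of 0.37, and over the mean of the clones the medians were 0.13 in both classes. Their levels in the control had medians of 82.2 and 55.9 RPKM.

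A few genes left the common pattern in a single clone, and these were picked after their values were seen. MRPL28 had 20.6, 23.1 and 18.4 CPM in M492-C11, against 12.4, 13.5 and 9.41 CPM in the control. It was the highest value of the 62 in any comparison (log2 fold change 0.82, SE 0.103, adjusted p = 2.27e-07), in a clone where the median of the 62 was 0.08. MRPL19 (YNL185C) had 25.8, 31.2 and 28.1 CPM in M491-C12, against 18.5, 17.4 and 14.5 CPM in the control, which gave a log2 difference of 0.76 (SE 0.108, adjusted p = 8.77e-06) beside a median of 0.19. RSM27 had 45.8, 43.8 and 47.7 CPM in M491-C06, against 28.5, 27.6 and 29.7 CPM in the control, which gave a log2 difference of 0.68 (SE 0.0793, adjusted p = 2.12e-09) beside a median of 0.20. In these 3 cases the groups did not overlap, and each gene rose in both library sets. MRPL32 (YCR003W) had 30.4, 30.6 and 50.5 CPM in M497-F10, against 28.1, 18.7 and 31.4 CPM in the control, and its groups overlapped (log2 fold change 0.50, SE 0.13, adjusted p = 0.025). Its highest value was in replicate 3.

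**Figure D4:**
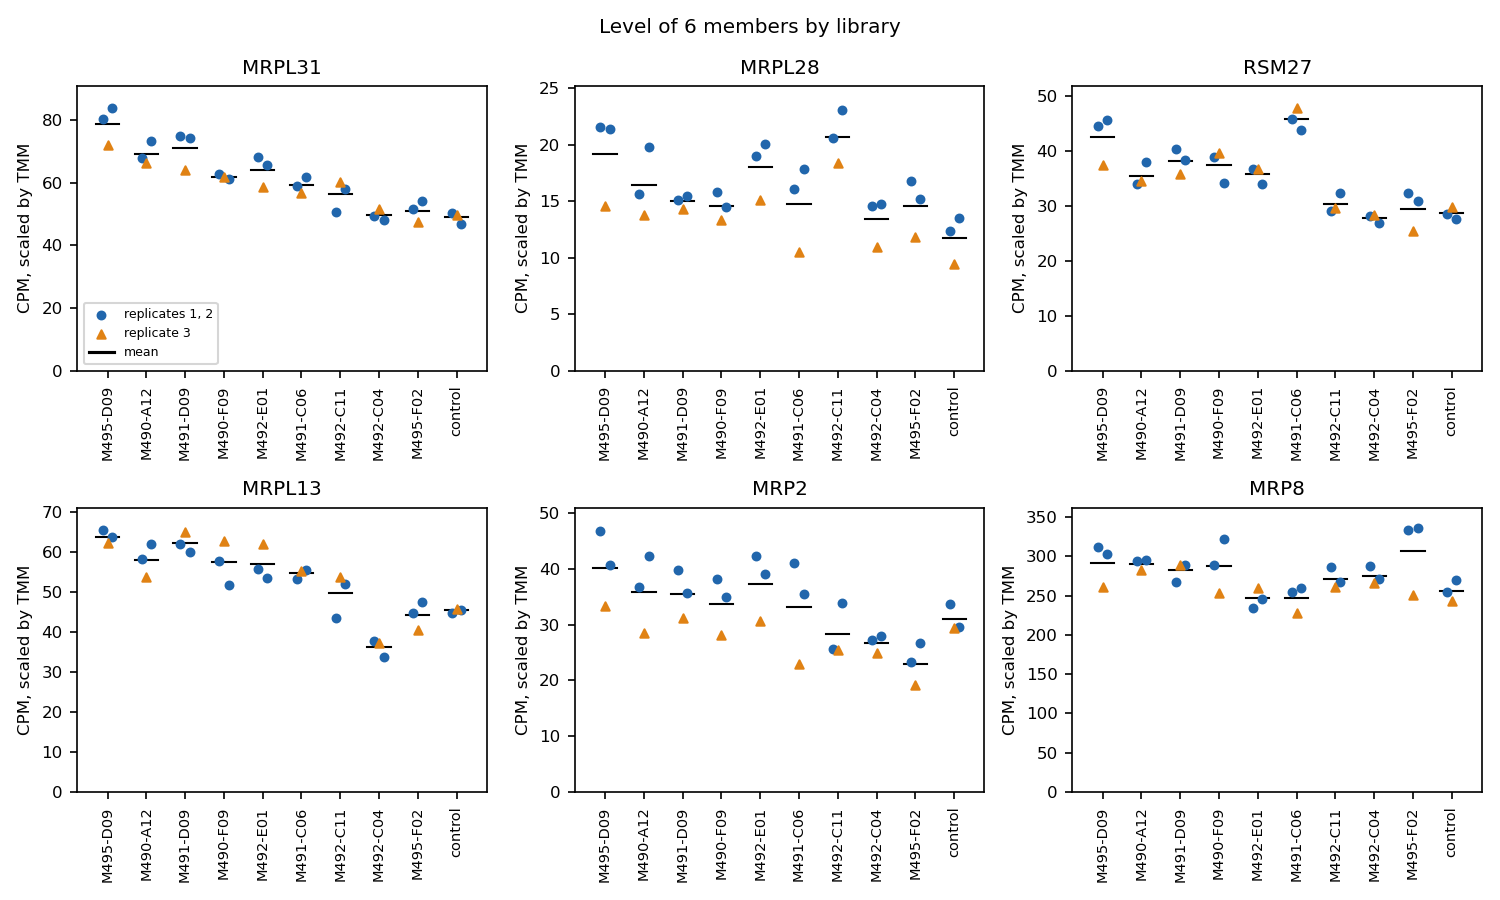
Level of 6 of the 62 genes in each library (CPM scaled by TMM, vertical axes from 0) in 9 clones and the control at the right. Circles are replicates 1 and 2, triangles replicate 3 and lines means. MRPL31 is highest in M495-D09 (72.1 to 84.0 CPM), MRPL28 in M492-C11, RSM27 in M491-C06 and MRP8 in M495-F02, while MRPL13 is lowest in M492-C04.

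Genes that act with the mitochondrial ribosome were described by lists. Over all genes tested 8.04% rose in M495-D09, 11.9% in M490-A12 and 8.69% in M491-D09, and 5.41%, 10.5% and 4.49% fell. Of 10 ribosomal proteins with other names 9 rose in M495-D09, 8 in M490-A12 and 8 in M491-D09, and 0 fell, with medians of 0.37, 0.28 and 0.32. MNP1 had 148, 153 and 145 CPM in M495-D09, against 94.7, 85.6 and 121 CPM in the control, without overlap (log2 fold change 0.58, SE 0.0821, adjusted p = 3.71e-07). In that clone FYV4 rose by 0.53 and MHR1 by 0.45 (log2). Of 9 mitochondrial translation factors 6 rose and 1 fell in M495-D09, 6 rose in M490-A12 and 5 rose in M491-D09. The elongation factor gene MEF1 had 157, 162 and 151 CPM in M495-D09, against 102, 109 and 130.1 CPM in the control, which gave a log2 difference of 0.48. The elongation factor gene TUF1 had 400.1, 405 and 432 CPM in M495-D09, against 288, 283 and 414 CPM in the control, so that replicate 3 of the control lay within the M495-D09 values (log2 fold change 0.35, SE 0.0796, adjusted p = 0.00104). MEF2, a relative of MEF1 known for ribosome recycling, went the other way. It had 59.8, 57.5 and 59.0 CPM in M495-D09, against 74.9, 75.3 and 88.2 CPM in the control (log2 fold change -0.43, SE 0.0784, adjusted p = 4.26e-05), and was also lower in M495-F02 at -0.59.

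Of 17 genes for charging mitochondrial tRNAs 9 rose in M495-D09, 11 rose and 1 fell in M490-A12, and 6 rose in M491-D09. Beside these and the following counts, 8.04%, 11.9% and 8.69% of all genes tested rose in the same clones. MSW1, the mitochondrial tryptophanyl-tRNA synthetase, had 37.2, 39.3 and 31.6 CPM in M495-D09, against 27.2, 21.8 and 25.5 CPM in the control, without overlap (log2 fold change 0.54). Of 16 activators that act on single mitochondrial mRNAs 5 rose in M495-D09, 6 in M490-A12 and 3 in M491-D09. MSS51, needed to translate the COX1 mRNA, rose by 0.59 in M495-D09 and by 0.58 in M490-A12 on the log2 scale. Of 8 assembly and processing genes 2 rose in M490-A12, among them YTA12, a subunit of the protease that matures Mrpl32, at 0.37. The mRNA of PUF3 itself rose by 0.25 in M495-D09 and 0.43 in M491-D09, and fell by 0.26 in M495-F02 on the log2 scale. Its groups overlapped, with replicate 3 highest in each of them. HAP4, the regulatory subunit of the activator of respiratory genes, had 231, 233 and 265 CPM in M495-F02, against 323, 341 and 482 CPM in the control (log2 fold change -0.64, SE 0.0766, adjusted p = 3.63e-10). In M495-D09 it did not pass (0.18, adjusted p = 0.112). Of 7 genes of mitochondrial DNA and transcription 2 rose in M495-D09 and 1 in each of M490-A12, M491-D09 and M492-E01. In M492-E01 2.49% of all genes tested rose, and a single call in so short a list says little. Of 3 ribosome receptors of the inner membrane 3 rose in M495-D09 and 1 in M491-D09. Of 5 regulators of these genes, HAP4 and PUF3 among them, 2 rose in M495-D09 and 3 fell in M495-F02, where 24.7% of all genes tested fell. Genes encoded in mitochondrial DNA, VAR1 among them, were not analysed here.

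Nuclear genes of the respiratory chain and ATP synthase were lower in M495-D09, M491-D09 and M492-E01. This did not hold for every clone in which mitoribosomal genes were higher. Of 27 such genes 0 rose and 23 fell in M495-D09, against 5.41% of all genes tested, with a median of -0.44. In M491-D09 8 fell, against 4.49%, and in M492-E01 8 fell, against 0.902%. The ATP synthase gene ATP3 had 511, 494 and 489 CPM in M495-D09, against 737, 736 and 754 CPM in the control, with no overlap (log2 fold change -0.58, SE 0.0737, adjusted p = 4.62e-08). COX4, a subunit of cytochrome c oxidase, had 227, 219 and 167 CPM in M495-D09, against 333, 311 and 282 CPM in the control (log2 fold change -0.61, SE 0.0855, adjusted p = 3.49e-07). In M490-A12, where 49 of the 62 genes were higher, 3 of the 27 fell, against 10.5%, which was near the background. In M490-F09 3 of the 27 rose, against 8.6% of all genes tested, so that this count lay near the background. They were the succinate dehydrogenase genes SDH2, SDH3 and SDH4, which over all clones were higher in 10, 10 and 9 of 25. In M495-F02 21 fell, against 24.7%, and 0 rose, with a median of -0.31. Of 137 listed cytosolic ribosomal protein genes only 23 had a row of their own, so most were not measured here. Of these 23 genes 0 were called in M495-D09, M490-A12, M490-F09 and M492-E01. In M491-D09 2 of the 23 rose, near the 8.69% of all genes tested. Of 33 genes named UTP or NOP, which serve cytosolic ribosome biogenesis, 25 fell in M490-A12, against 10.5% of all genes tested, and 14 in M490-F09, against 7.46%. In M495-D09, M491-D09 and M492-E01 0 of the 33 were called, and 17 rose in M495-F02, against 25.6%. Of the 4 genes of the alpha mating type 4 were lower in M495-D09, against 5.41% of all genes tested, and 3 in M490-A12, against 10.5%. In each of M491-D09, M490-F09 and M495-F02 2 were lower, against 4.49%, 7.46% and 24.7%, and in M492-E01 0 were. STE3 had 129.6, 139 and 126 CPM in M495-D09, against 274, 256 and 211 CPM in the control. Of 3 galactose genes 3 were lower in M495-F02, against 24.7%, and 0 in the other 5 of these clones. All 4 alpha genes were also lower in M492-C04, M491-C04, M491-E04 and M491-E09, where 0, 3, 4 and 2 of the 62 genes rose. Over the 25 clones STE3 was lower in 13. The part of the mating-type and galactose genes in the other differences was not tested.

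**Figure D5:**
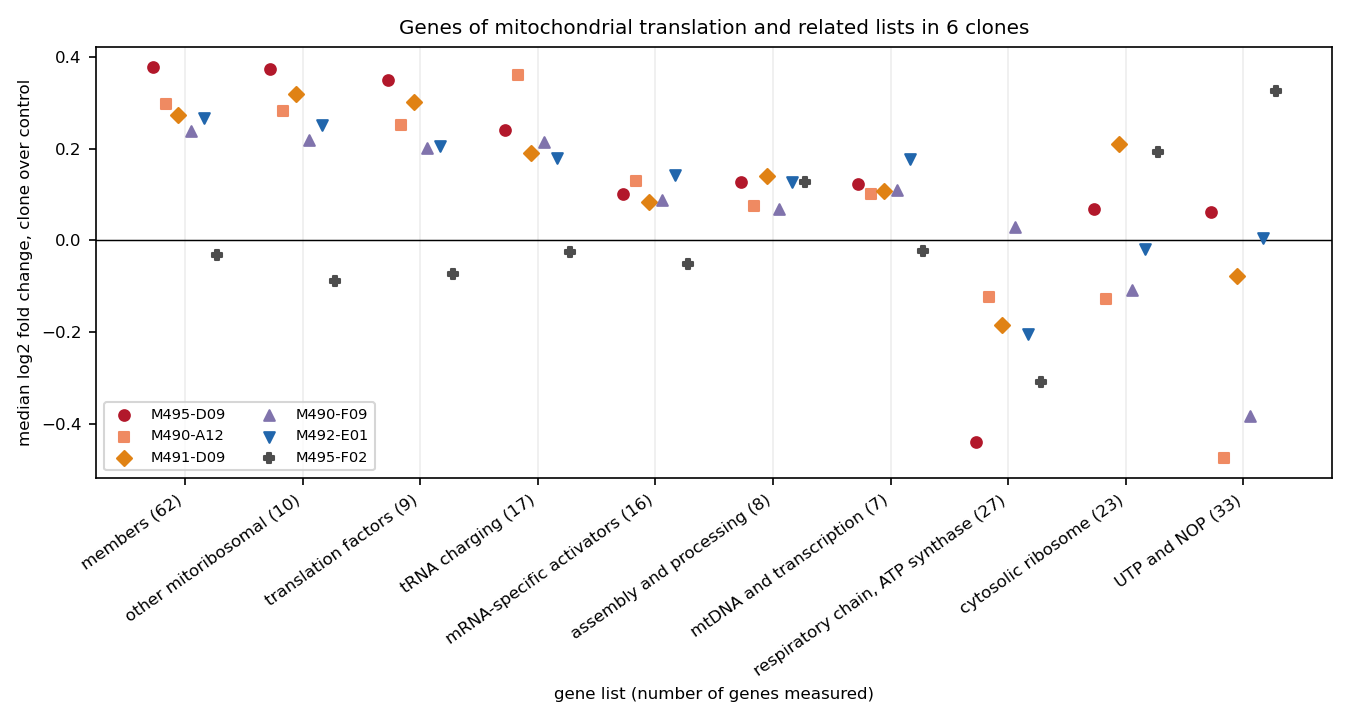
Median log2 fold change over the control of the 62 genes and of 9 gene lists in 6 clones (one marker shape per clone; the number of genes measured is in the label). M495-D09 stands at 0.38 for the 62 genes and at -0.44 for the respiratory chain and ATP synthase, and M490-A12 stands lowest for the UTP and NOP genes at -0.48.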

How the data were processed

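The authors deposited 1 table of raw counts per gene and library for 78 polyA RNA libraries, made with fastp 0.23.1, STAR 2.5.2b and featureCounts of Subread 1.5.2, per the submitters' processing notes, which name build R64. The features of the files lie on contigs of another assembly, so no coordinates or sequences are given. Whether the molecular identifiers of the adapters were used in counting is not given in the sources used here. Gene IDs were matched to names through the RefSeq gene table, and 5058 of 5229 gene rows matched 1 locus tag. A row without a name (median 0.886% of counts) and a row named UNDEF (2.36%) were left out, and 129 rows that join several genes were not used for members. Depth is the count on gene rows, 10415284 to 18048675 per library. Counts were fitted in R 4.3.3 with edgeR 4.0.16 (TMM scaling, filterByExpr, quasi-likelihood tests with 51 residual degrees of freedom) with terms for the group and the library set. Adjusted p-values are Benjamini-Hochberg over all tested genes of a comparison, at a threshold of 0.05. CPM are counts scaled by TMM to a common library size, and RPKM are CPM per kilobase of coding length, both computed here from the counts. Nothing in the labels beyond the words biological replicate says how cultures were separated. Genes named are up to 4 per side in the clones with the most calls against the control (largest log2 fold change, mean of at least 10 CPM, no overlap with the control, and up to 2 called in the opposite direction), up to 3 per clone against the other groups and per list, and up to 6 for the mean of the clones. The values of M492-E01 against the control and the members named beside small counts were chosen after their values were seen. The 62 genes, the gene lists and the clones described were chosen with earlier results of these data known. RPP1, a subunit of RNase P and not of the ribosome, was taken out of the cytosolic ribosomal list, whose rule on names had held it. The fit was also run on counts simulated around the control means without a difference between library sets, so that run cannot speak to that difference. Alternatives were RLE scaling, DESeq2 1.42.0, no filter, the first set alone and no set term. Others were plate rows of the resubmitted libraries as batches, a replicate block and leaving out each library.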

Additional observations from a re-analysis of the deposited data

How the results depend on the processing

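RLE scaling, DESeq2, no filter and resubmitted plate rows as batches kept the counts named in this paragraph within 1.5 times, except in M491-D07. Its count of 7 was 12 with the resubmitted plate rows as batches. With no term for the set the count of higher genes was 35 in M495-D09, 23 in M490-A12, 20 in M491-D09, 9 in M490-F09, 10 in M492-E01, 13 in M491-C07, 11 in M491-C03, 9 in M491-C06, 3 in M491-C09, 3 in M491-C12, 1 in M491-D01, 0 in M491-D07, 2 for the mean of the clones and 139 summed over the clones, and 2 were lower in M495-F02. Against the other groups it was then 12 higher in M490-A12, 12 lower in M492-C04 and 6 higher in M492-E01. With the first set alone the mean of the clones had 43 higher, the sum was 641 and M495-F02 had 3 lower. The cause was not tested. Leaving out 1 library gave 2 to 20 for the mean of the clones, 265 to 431 for the sum, 23 to 34 in M490-F09 and 3 to 9 lower in M495-F02. Against the other groups it gave 18 to 36 lower in M495-F02, 19 to 34 higher in M490-A12, 11 to 32 lower in M492-C04 and 4 to 27 higher in M492-E01. With the replicate number as a block the counts were 57 in M495-D09, 49 in M490-A12, 45 in M491-D09, 35 in M490-F09 and 402 in sum. Replicates 1 and 2 share only a number across groups: the difference between them correlated with that of the control at -0.30 to 0.31 over the clones. Of 42 log2 fold changes of named genes under 933 alternatives 0 reversed and 25 no longer passed. Of the 25, 12 came with no term for the set, where 30 of the 42 still passed, and 13 with 1 library left out. Most of these genes were named for large changes, so a reversal was unlikely from the start. Promoter motifs were not run, since no sequence of the files' assembly was used here. Genes with few counts, such as MRPL28, carry the larger standard errors, and 3 libraries per group limit what small changes can pass.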
